A study of Homo sapiens with 6 samples.

Results

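Of 18132 genes measured on the arrays, 10 that handle methylated arginine and free arginine were followed: DDAH1 and DDAH2, the methyltransferase genes PRMT1, PRMT3, PRMT5 and PRMT6, and ASS1, ASL, ARG2 and NOS3. The set was chosen from the comparison itself, since DDAH1 showed the largest fall among all genes on its brightest probe set, and the others were joined to it by function. Every probe set with 1 of these symbols as its only gene was taken, which gave 25 of the 44988 single-gene probe sets. The values of the members are therefore descriptions of how they differed and carry no test. The groups were 786-O cells given shRNA against ERCC6L by lentivirus, called shERCC6L here (3 arrays), and 786-O cells labelled control and shNC (3 arrays). 786-O is an established human line from a clear cell renal cell carcinoma that lacks a working VHL protein, and both groups share that background. Both were grown alike in medium with fetal bovine serum, and their total RNA was read on 6 single-channel Affymetrix arrays. The number of hairpins, what the control virus carried and whether replicates were separate cultures are not stated in the labels, so errors measure the spread between these arrays, which may be technical.

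Arginines in proteins are methylated by the PRMT enzymes, and when such proteins are broken down free methylarginines are released. Asymmetric dimethylarginine competes with arginine at the nitric oxide synthases, and DDAH1 removes it by splitting it into citrulline and dimethylamine. Citrulline can be turned back into arginine by ASS1 and ASL, a route for which the kidney tubule is a main site in the body, while the arginases and nitric oxide synthases use arginine up.

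The 250 bases before the annotated starts of DDAH1, DDAH2 and ASS1 are shown because these are the 3 members that lay past the threshold as lower in the fit over all genes. PRMT5, ARG2 and NOS3 had lower mean signals too, by less. All 3 starts of DDAH1 are given, since the array does not tell which of them its transcripts came from, and for DDAH2 and ASS1 the outermost start. Sequences are from RefSeq on GRCh38.p14, 5′ to 3′ on the gene's strand. Capitals mark matches to 4 motifs on either strand. A GC box was searched as GGGCGG and a TATA box as TATAAA. The core of a hypoxia response element, the site of the HIF factors, was searched as ACGTG. The amino acid response element, a site bound by ATF4, was searched as TGATGNAA.
DDAH1, outer start, chr1:85578201-85578450, minus strand: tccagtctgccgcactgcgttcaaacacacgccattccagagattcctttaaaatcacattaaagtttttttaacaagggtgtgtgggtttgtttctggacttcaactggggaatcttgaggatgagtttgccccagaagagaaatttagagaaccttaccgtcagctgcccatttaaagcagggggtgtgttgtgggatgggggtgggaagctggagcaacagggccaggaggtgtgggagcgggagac
DDAH1, middle start, chr1:85465160-85465409, minus strand: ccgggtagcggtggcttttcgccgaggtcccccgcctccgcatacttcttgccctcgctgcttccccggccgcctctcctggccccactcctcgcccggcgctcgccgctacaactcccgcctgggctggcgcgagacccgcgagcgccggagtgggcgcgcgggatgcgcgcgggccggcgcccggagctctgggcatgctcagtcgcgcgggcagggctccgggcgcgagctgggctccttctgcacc
DDAH1, inner start, chr1:85404507-85404756, minus strand: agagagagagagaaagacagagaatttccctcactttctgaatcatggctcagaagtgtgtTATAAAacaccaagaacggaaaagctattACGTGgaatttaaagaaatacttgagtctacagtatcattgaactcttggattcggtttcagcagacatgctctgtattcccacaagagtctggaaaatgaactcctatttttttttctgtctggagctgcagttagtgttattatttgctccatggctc
DDAH2, chr6:31730264-31730513, minus strand: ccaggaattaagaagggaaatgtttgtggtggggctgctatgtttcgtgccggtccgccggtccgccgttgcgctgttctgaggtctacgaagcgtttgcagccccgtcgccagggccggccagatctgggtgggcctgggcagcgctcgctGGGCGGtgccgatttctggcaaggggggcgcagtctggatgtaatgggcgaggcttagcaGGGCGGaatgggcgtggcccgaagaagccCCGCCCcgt
ASS1, chr9:130444457-130444706, plus strand: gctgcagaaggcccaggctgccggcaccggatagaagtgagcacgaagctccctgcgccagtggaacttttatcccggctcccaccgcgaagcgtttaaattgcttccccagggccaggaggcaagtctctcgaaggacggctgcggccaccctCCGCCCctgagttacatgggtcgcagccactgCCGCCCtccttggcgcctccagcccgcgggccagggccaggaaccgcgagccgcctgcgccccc
The 3 DDAH1 windows differed in base composition. The middle one was 76.4% G or C with 36 CpG dinucleotides, the outer one 50% with 5 and the inner one 38.8% with 3, beside medians of 58% and 11 over 35116 such windows of all genes. The inner window held 1 TATA box and 1 hypoxia response core, and the other 2 held none of the 4 motifs. The DDAH2 window shown held 3 GC boxes and the ASS1 window shown 2. The window of a second ASS1 start, not shown, held 2 GC boxes and 2 matches to the hypoxia response core. Those matches overlap in a single CACGTG, read on both strands. The further DDAH2 windows held 2 and 1 GC boxes and none of the other motifs. Over all windows, 42.6% held a GC box, 18.5% the hypoxia response core, 10.7% a TATA box and 3.14% the amino acid response element, which none of the 5 windows shown held. A match says only that these letters are present.

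The arrays lay on a common scale, with median signals from 60 to 61.2 in shERCC6L and from 60.4 to 61.6 in shNC. ERCC6L, a DNA translocase that acts on the threads joining sister chromatids in anaphase, was the targeted gene, and its probe set read 97.6, 97.5 and 97.8 in shERCC6L, against 239.9, 244.3 and 261.4 in shNC, so 39.3% of the control signal was left. Of 9 listed markers of renal tubule and clear cell carcinoma 8 were measured, with summed signals of 22628 to 23258 in shERCC6L and 23947 to 24300 in shNC. Among them PAX8 and KRT18 rose and CDH6, EPAS1 and NNMT fell (limma adjusted p of 0.0417 or less). VIM, which did not pass, made up most of these sums, with means of 14885 in shERCC6L and 14926 in shNC. The 5 endothelial markers summed to 220 to 230.2 in shERCC6L and 228.1 to 235.9 in shNC, and the 4 measured of 5 leukocyte markers to 52.4 to 56.5 and 51.6 to 59.4. No endothelial or leukocyte marker passed the threshold. The 5 fibroblast markers summed to 156.2 to 159.6 in shERCC6L and 183 to 188.3 in shNC, with COL1A1 and PDGFRA lower. The part of these differences in the results below was not tested.

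DDAH1 was lower in shERCC6L on every array and by every probe set. The gene spans chr1:85318485-85578200 (GRCh38.p14) and is read by 3 probe sets. The brightest, 11757504_a_at, gave signals of 67.6, 72.0 and 76.5 in shERCC6L, against 378.2, 368.1 and 402.6 in shNC. The highest shERCC6L array lay well below the lowest shNC array. The means were 72.1 ± 4.45 in shERCC6L and 383 ± 17.7 in shNC (SD, n = 3 each), so 18.8% of the control signal was left. On the log2(signal + 16) scale, where the added 16 damps the changes of dim probe sets, the difference was -2.18 ± 0.05 (SE), or 4.53-fold lower. Fewer cells with the transcript and less of it per cell cannot be told apart in such bulk RNA.

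The other DDAH1 probe sets were dimmer and showed smaller differences on this scale. Probe set 11716917_a_at read 39.2, 29.0 and 35.9 in shERCC6L, against 96.9, 92.9 and 85.1 in shNC, a log2 difference of -1.09 ± 0.07. Probe set 11748534_a_at read 26.3, 20.7 and 20.4 in shERCC6L, against 50.9, 69.2 and 67.5 in shNC, a log2 difference of -1.02 ± 0.10. In neither did the groups overlap. The signal left was 37.9% and 35.9% of that in shNC. With no detection calls in the table, how much of these dim signals is background is unknown. With a pseudocount of 1 in place of 16 the log2 differences of these probe sets were -1.38 and -1.43, while that of the brightest was -2.40. Averaged over its 3 probe sets DDAH1 differed by -1.43, which ranked 7 among all genes instead of 1. By brightest probe sets the next largest fall was that of RAB5C, a GTPase of early endosomes, at -1.87 ± 0.04, just outside the choice that DDAH1 was picked by.

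DDAH2, the paralog of DDAH1, whose own activity on asymmetric dimethylarginine is disputed, was lower by less. Its only probe set, 11715863_x_at, read 143.6, 148.6 and 134.8 in shERCC6L, against 200.6, 196.8 and 205.7 in shNC. Each shERCC6L array lay below each shNC array, at 70.8% of the control mean. The log2 difference was -0.46 ± 0.04 (SE), and leaving out any 1 array kept it between -0.48 and -0.42. The suffix of this probe set marks probes that may also match other sequences.

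**Figure D1:**
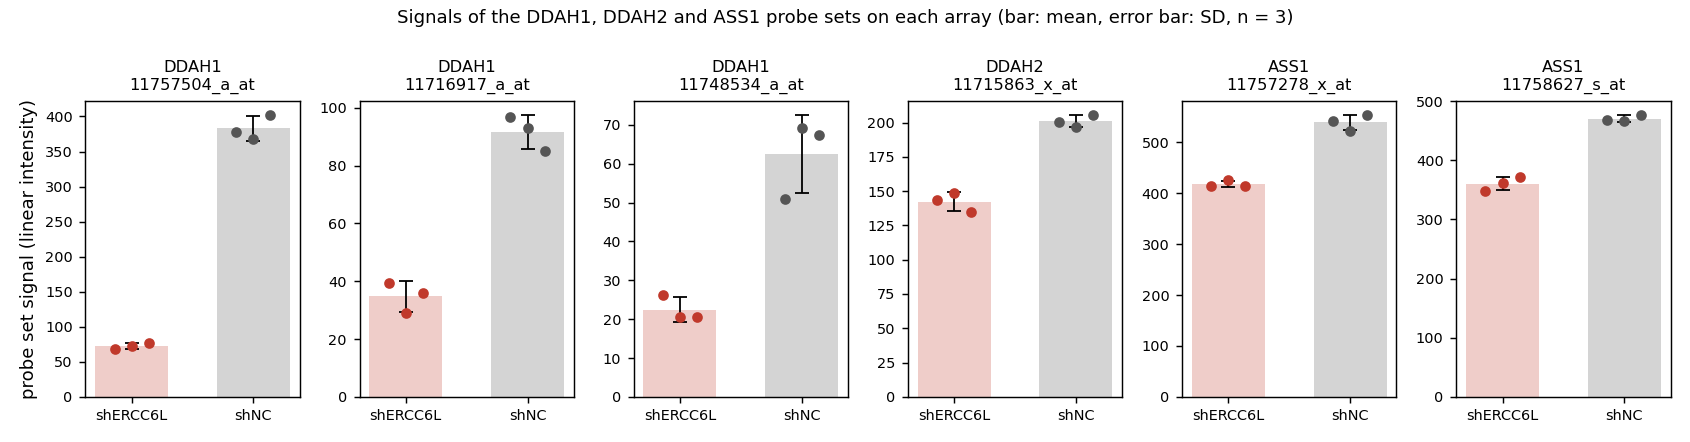
Linear signal of the DDAH1, DDAH2 and ASS1 probe sets in shERCC6L (left, red) and shNC (right, grey), with 1 point per array, bars for the means and error bars for the SD (n = 3), each panel with its own axis from 0. In all 6 panels the 3 shERCC6L arrays lie below the 3 shNC arrays, with the widest gap for DDAH1 probe set 11757504_a_at.

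The methyltransferases that make the methylarginines differed little between the groups. PRMT1, the enzyme that makes most asymmetric dimethylarginine in cells, read 1972, 2140 and 1995 on its brightest probe set in shERCC6L, against 1875, 1728 and 1866 in shNC. The groups did not overlap and the log2 difference was 0.16 ± 0.05. Its other probe sets pointed the other way, with log2 differences of -0.11 ± 0.08 (11760492_x_at) and -0.08 ± 0.04 (11760513_a_at). The last had signals of only 11.2 to 11.8 in shERCC6L and 12.1 to 14.5 in shNC. With the 3 averaged PRMT1 stood at -0.01, so no direction can be given for it.

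PRMT6, which places asymmetric marks on histone H3, was higher by each of its 3 probe sets. The brightest read 280.2, 271.3 and 284.2 in shERCC6L, against 259.2, 235.9 and 240.6 in shNC, a log2 difference of 0.17 ± 0.04. A further probe set, 11751481_a_at, read 197, 203.5 and 202.9 in shERCC6L, against 170.3, 165 and 162 in shNC, or 0.26 ± 0.03. The groups were apart in both. In the third, 11725345_at, they overlapped, at 126.3 to 147.1 in shERCC6L and 121.8 to 126.6 in shNC (0.12 ± 0.05).

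PRMT3, a cytosolic enzyme that methylates the ribosomal protein RPS2, differed by 0.10 ± 0.04, 0.08 ± 0.04 and 0.08 ± 0.04 on its 3 probe sets. On the brightest it read 267.2, 255 and 259.8 in shERCC6L, against 242.8, 235.5 and 247.3 in shNC, without overlap. On the other 2 probe sets the groups overlapped. PRMT5, the main enzyme for symmetric dimethylarginine, which DDAH enzymes do not degrade, read 667.7, 670.6 and 670.8 in shERCC6L, against 694.8, 684.7 and 702.5 in shNC. Its log2 difference was -0.05 ± 0.03, or 96.5% of the control mean.

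The 2 genes that remake arginine from citrulline differed in opposite directions. ASS1, argininosuccinate synthase, read 415.1, 425.4 and 413.6 in shERCC6L, against 541.5, 522.4 and 552.8 in shNC, a log2 difference of -0.35 ± 0.04 with 77.6% of the control mean left. Its second probe set, 11758627_s_at, read 348.9, 361.7 and 371.1 in shERCC6L, against 467.9, 466 and 477.3 in shNC, or -0.37 ± 0.04. Both separated the groups fully. ASS1 has several processed pseudogenes in the human genome, and neither probe set can be taken as free of their signal.

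ASL, argininosuccinate lyase, which follows ASS1, was higher on 4 of its 5 probe sets. The brightest read 599.4, 630.6 and 625.6 in shERCC6L, against 548.8, 519.7 and 539.9 in shNC, a log2 difference of 0.20 ± 0.04. With all 5 averaged it was 0.13. The 3 next, 11742937_x_at, 11740232_x_at and 11746742_a_at, gave 0.17 ± 0.03, 0.19 ± 0.04 and 0.17 ± 0.05, each without overlap. Those with the suffix _x_at may, as for DDAH2, also match other sequences. The dimmest, 11760562_at, overlapped at 41.3 to 44.7 in shERCC6L and 41.4 to 52.3 in shNC (-0.07 ± 0.06).

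The genes of arginine use showed small differences. ARG2, the mitochondrial arginase of extrahepatic tissues, read 86.4, 88.2 and 87.4 in shERCC6L, against 90.2, 93.7 and 99.8 in shNC, a log2 difference of -0.10 ± 0.04. Its second probe set overlapped at -0.04 ± 0.06. NOS3, the nitric oxide synthase of endothelium, read 63.2, 60.7 and 52.3 in shERCC6L, against 68.3, 60.8 and 61.0 in shNC, with overlap (-0.09 ± 0.06). Its second probe set lay at 18.0 to 20.4 in shERCC6L and 16.3 to 18.9 in shNC. The table holds no detection calls, so whether such dim signals exceed background is unknown. The mean signals of the 5 endothelial markers ran from 17.3 (CDH5) to 84.6 (VWF) in shERCC6L, and from 17.0 (CDH5) to 83.7 (VWF) in shNC.

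**Figure D2:**
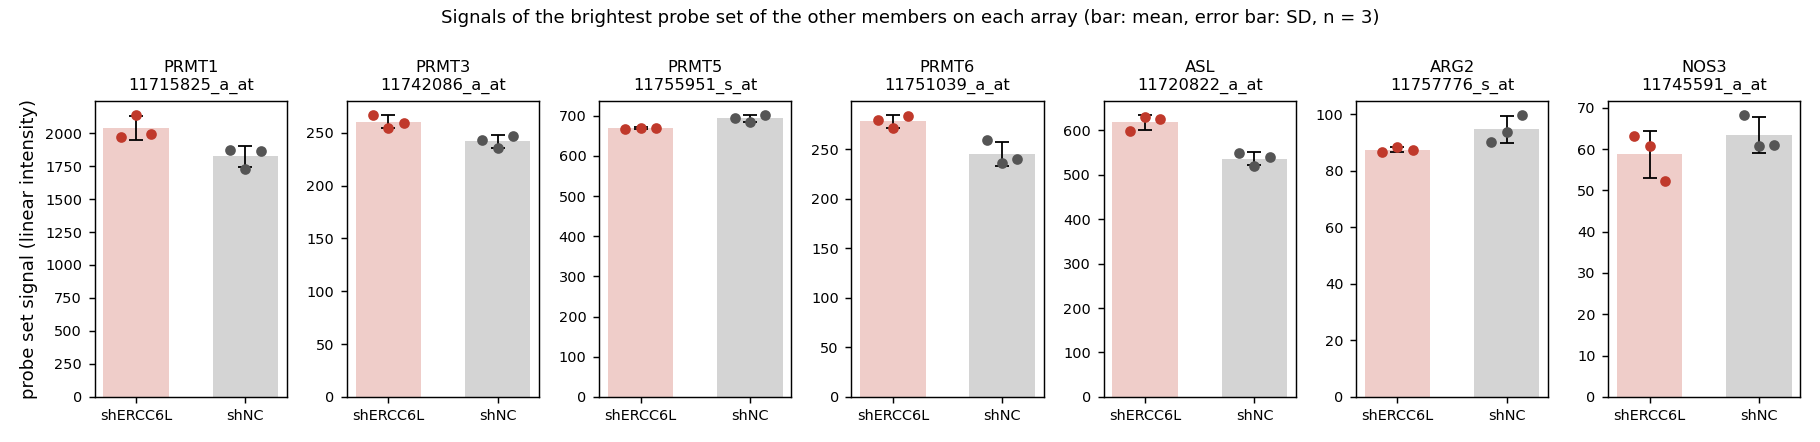
Linear signal of the brightest probe set of the 7 other members in shERCC6L (left, red) and shNC (right, grey), with 1 point per array, bars for the means and error bars for the SD (n = 3), each panel with its own axis from 0. The differences are small beside that of DDAH1, and the groups overlap only for NOS3.

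**Figure D3:**
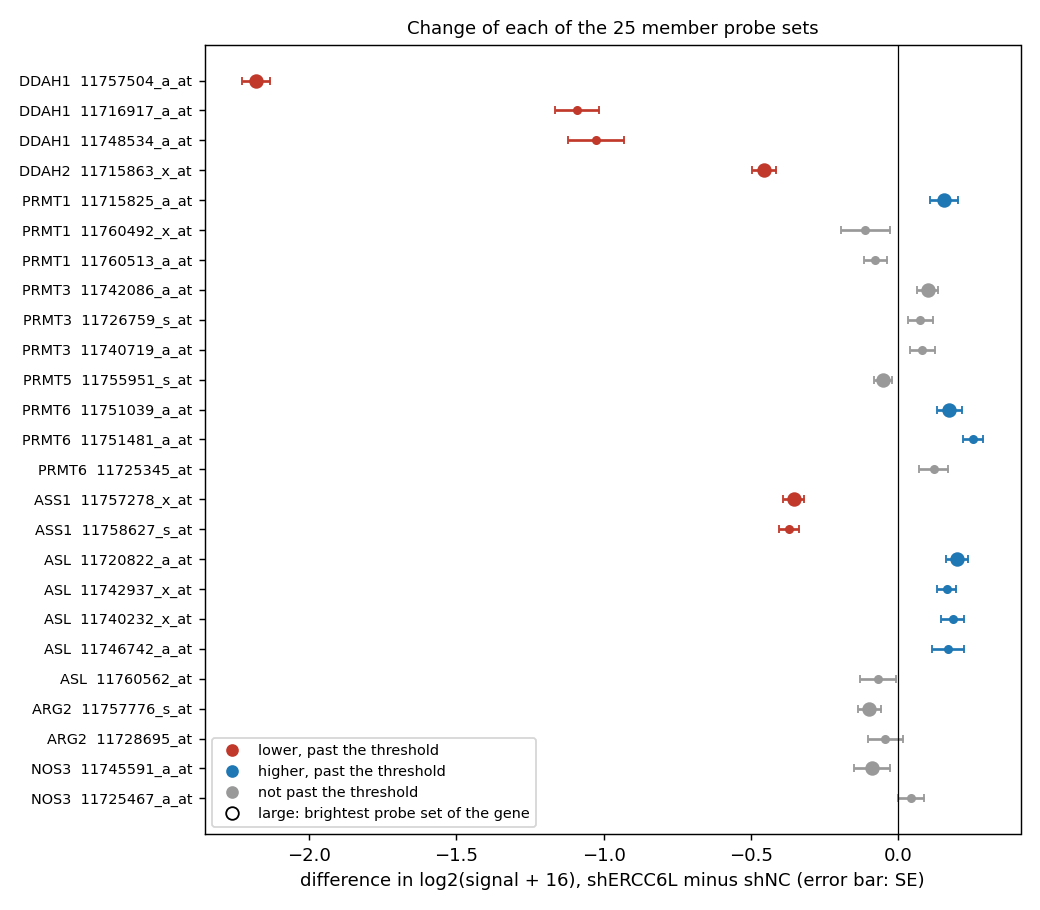
Difference in log2(signal + 16), shERCC6L minus shNC, for each of the 25 member probe sets, with the SE as error bar, large points for the brightest probe set of a gene and colour for the side of the threshold. All DDAH1, DDAH2 and ASS1 probe sets lie left of 0, all PRMT6 and PRMT3 probe sets right of it, and those of PRMT1, ASL and NOS3 on both sides.

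In the fit over all genes, 3 members (DDAH1, DDAH2 and ASS1) lay past the threshold as lower and 3 (PRMT1, PRMT6 and ASL) as higher, with an adjusted p of 0.05 as the threshold. Over all genes 31.6% passed, 13.4% as lower and 18.2% as higher. In the upper 50% of genes by mean level, where 9 of the 10 members lay, 19.6% were lower and 32.8% higher. The groups did not overlap for 9 members, NOS3 being the exception, and for 43.4% of all genes. Of the 25 probe sets 6 were past the threshold as lower and 7 as higher, and of all single-gene probe sets 29% passed in either direction. Since the set was drawn from this comparison, nothing is read from these counts. The median log2 difference of the members was -0.07, against -0.01 over all genes.

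**Figure D4:**
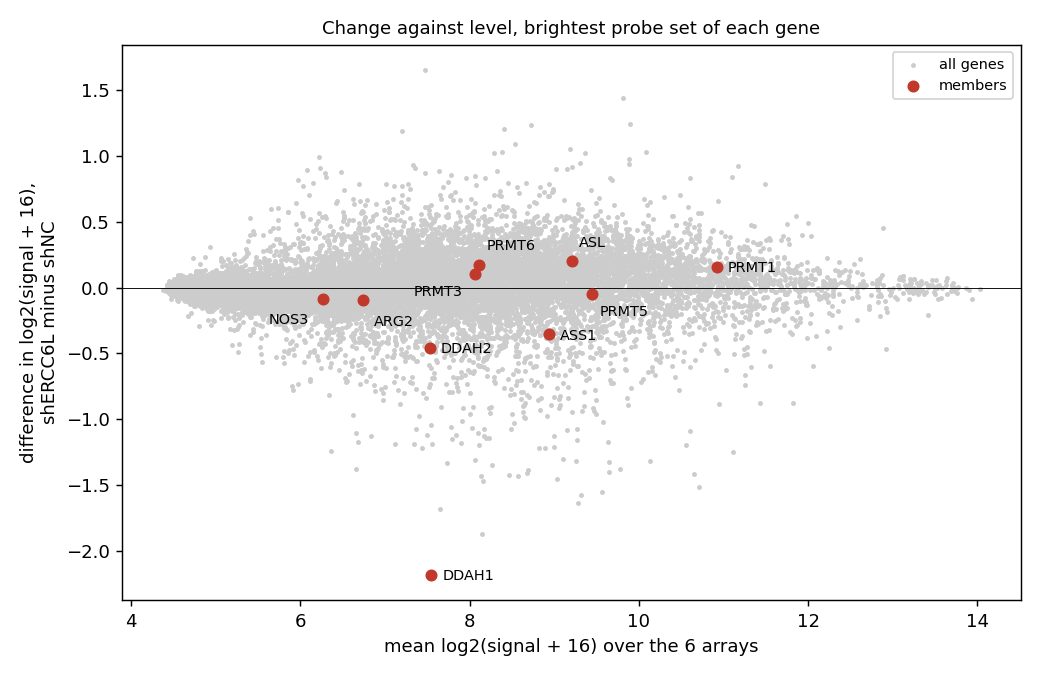
Difference in log2(signal + 16), shERCC6L minus shNC, against the mean log2(signal + 16) over the 6 arrays, for the brightest probe set of each of 18132 genes (grey) and of the 10 members (red). DDAH1 lies lowest of all genes at -2.18, DDAH2 and ASS1 lie at -0.46 and -0.35, and the other members lie between -0.10 and 0.20.

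The genes whose profile over the 6 arrays was most like that of DDAH1, by Pearson's r among the 9066 other genes at or above the median level, were DCP1A, LAMTOR3, ZYG11B, DENND5A and ATF4, with r from 0.9996 to 0.9998. LAMTOR3, a subunit of the Ragulator complex on lysosomes, averaged 171.6 ± 5.99 in shERCC6L and 386.1 ± 5.39 in shNC (SD, n = 3 each). ATF4, the transcription factor of the amino acid stress response, averaged 3553 ± 10.7 in shERCC6L and 4625 ± 41.9 in shNC. All 5 were lower in shERCC6L, the arrays fall into 2 groups, and 321 of the 9066 genes (3.54%) reached 0.99.

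Beyond the members, 67 of 70 listed genes of arginine methylation and arginine metabolism were measured. By limma 16 were higher and 9 lower in shERCC6L, beside the 18.2% and 13.4% of all genes given above. Of these 67, 44 lay at or above the median level, where 15 were higher and 9 lower. In that class 32.8% of all genes were higher and 19.6% lower. The median log2 difference was -0.02. The lists were read by function and their counts are descriptions.

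Among the other arginine methyltransferases 1 of 5 fell and 1 rose. Both were among the 3 at or above the median level, where 19.6% of all genes were lower and 32.8% higher. PRMT2, which acts as a coactivator of nuclear receptors, read 227, 228.2 and 219.2 in shERCC6L, against 307.4, 286.1 and 289.2 in shNC, and fell by 0.36 ± 0.04 (log2, SE; adjusted p = 0.00011). Averaged over its 7 probe sets the difference was -0.15. PRMT7, which makes monomethylarginine, rose by 0.13 ± 0.04 (adjusted p = 0.018). That call was lost without shERCC6L replicate 2, shNC replicate 2 or shNC replicate 3, with adjusted p of 0.076, 0.052 and 0.059, and with quantile normalization (0.056). CARM1 stood at 0.06 ± 0.04, PRMT8, a brain enzyme, at -0.05 ± 0.05 and PRMT9 at -0.06 ± 0.04, and none of them passed.

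Of 4 partners and adaptors of PRMT5 2 rose and 0 fell. All 4 lay at or above the median level, where 32.8% of all genes were higher and 19.6% lower. WDR77, the obligate subunit that forms the methylosome with PRMT5, read 763.4, 715.9 and 794.5 in shERCC6L, against 530.9, 533.3 and 578.1 in shNC, and rose by 0.46 ± 0.05 (adjusted p = 0.00012). COPRS, an adaptor that brings PRMT5 to histones, rose by 0.24 ± 0.04 (adjusted p = 0.0008). Of the substrate adaptors, CLNS1A at 0.14 ± 0.05 and RIOK1 at 0.06 ± 0.04 did not pass. CLNS1A passed in 4 of 13 alternatives, among them the omission of shERCC6L replicate 1 (0.18) or shNC replicate 2 (0.18), and RIOK1 passed in 1, with its probe sets averaged (0.16, adjusted p = 0.0064). Of the proteins that read methylarginine, SND1 rose by 0.28 ± 0.04 (adjusted p = 0.00069), while TDRD3 and SMNDC1 stood at -0.01 ± 0.05 and 0.05 ± 0.05.

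JMJD6, an oxygenase that hydroxylates lysines and has been reported to demethylate arginine, read 577.3, 568.7 and 535.2 in shERCC6L, against 386.5, 366.3 and 393.4 in shNC. It rose by 0.53 ± 0.04 (adjusted p = 2.2e-05), and by 0.27 with its 2 probe sets averaged. The peptidylarginine deiminase genes PADI1 to PADI4, which turn protein arginine into citrulline, had log2 differences from -0.17 to -0.05 and none passed. All of them lay below the median level, where calls were rarer than the 18.2% higher and 13.4% lower of all genes. PADI1 passed as lower without shERCC6L replicate 3 (-0.25, adjusted p = 0.032) and with a replicate block (adjusted p = 0.028). In the list of methyl donor supply 1 of 5 genes changed. That gene was among the 4 at or above the median level, where 32.8% of all genes were higher and 19.6% lower. AHCYL1, a relative of the S-adenosylhomocysteine hydrolase AHCY that binds the inositol trisphosphate receptor and is not itself known to hydrolyse S-adenosylhomocysteine, read 1427, 1469 and 1435 in shERCC6L, against 2654, 2664 and 2716 in shNC. It fell by 0.88 ± 0.03 (adjusted p = 2.7e-07). AHCY itself stood at -0.05 ± 0.04, and MAT1A, MAT2A and MAT2B, which make or regulate the synthesis of S-adenosylmethionine, at -0.11 ± 0.07, 0.02 ± 0.04 and -0.03 ± 0.04. MAT2A passed with its probe sets averaged (0.16, adjusted p = 0.0017).

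Of 11 genes of nitric oxide synthesis and sensing 2 rose and 2 fell. These were all among the 6 at or above the median level, where 32.8% of all genes were higher and 19.6% lower. NOSIP, which binds NOS3 and moves it from the membrane, rose by 0.32 ± 0.04 (adjusted p = 0.00016), at 869.8 ± 29.1 in shERCC6L and 693.9 ± 6.68 in shNC (SD, n = 3 each). Averaged over its 2 probe sets the rise was 0.11. The others past the threshold, named after their values were seen, were PTS and SPR, both of tetrahydrobiopterin synthesis, and CAV1, the caveolin that holds NOS3 inactive. Their log2 differences were 0.16 ± 0.05 for PTS, -0.25 ± 0.04 for SPR and -0.19 ± 0.03 for CAV1. With its 2 probe sets averaged SPR stood at -0.15. PTS lost its call in 5 of 13 alternatives, among them the omission of shERCC6L replicates 1 or 3 or of shNC replicates 1 or 2 (log2 differences of 0.17, 0.12, 0.15 and 0.14). NOS1 and NOS2 did not pass.

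Of 13 genes of the urea cycle and arginine use 3 rose and 1 fell, again named after their values were seen. Over all genes 18.2% were higher and 13.4% lower. At or above the median level lay 7 of the 13, of which 2 rose and 1 fell. In that class 32.8% of all genes were higher and 19.6% lower. NAGS, which makes the activator of the urea cycle's first enzyme, rose by 0.24 ± 0.06, and by 0.13 with its 3 probe sets averaged. RARS1, the arginyl-tRNA synthetase, rose by 0.20 ± 0.04. ATE1, the arginyltransferase, stood at 0.17 ± 0.05, a call lost in 5 of 13 alternatives, among them the omission of shERCC6L replicates 1 or 2 or of shNC replicates 1 or 3 (log2 differences of 0.14, 0.16, 0.14 and 0.17). SLC25A15, the mitochondrial ornithine carrier, fell by 0.20 ± 0.04. The urea cycle genes CPS1, OTC and ARG1 did not pass. OTC and ARG1 were dim, with mean signals of 14.6 and 7.92 in shERCC6L and 16.3 and 7.23 in shNC. Whether they exceed background is unknown.

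Polyamines are made from ornithine, the product of arginase. Of 10 genes of their synthesis and turnover 5 rose and 0 fell. All 5 were among the 9 at or above the median level, a class in which 32.8% of all genes were higher and 19.6% lower. ODC1, OAZ2 and SMOX were named after their values were seen. AMD1, the S-adenosylmethionine decarboxylase, read 1844, 1874 and 1897 in shERCC6L, against 1202, 1193 and 1267 in shNC, and rose by 0.61 ± 0.04 (adjusted p = 4e-06). SRM, spermidine synthase, rose by 0.34 ± 0.04 (adjusted p = 0.0001). ODC1, which makes putrescine from ornithine, rose by 0.18 ± 0.03, OAZ2, an antizyme that inhibits it, by 0.27 ± 0.04 and SMOX, spermine oxidase, by 0.23 ± 0.04. The median of the list was 0.11. The genes that rose include enzymes of synthesis (AMD1, SRM, ODC1), an inhibitor (OAZ2) and an enzyme of breakdown (SMOX).

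Of 8 genes of arginine transport and sensing 3 fell and 1 rose. All 4 were among the 5 at or above the median level, for which the shares over all genes were 19.6% lower and 32.8% higher. SLC7A1 was named after its values were seen. SLC3A2, the heavy chain shared by several amino acid exchangers, read 920.2, 976.9 and 977.8 in shERCC6L, against 1467, 1377 and 1357 in shNC, and fell by 0.54 ± 0.04 (adjusted p = 2.1e-05). SLC7A7, its light chain for export of arginine and lysine, read 102.2, 87.8 and 88.3 in shERCC6L, against 125.9, 120.8 and 138.6 in shNC, and fell by 0.41 ± 0.06 (adjusted p = 0.0009). SLC7A1, the main importer of arginine in most cells, stood at -0.15 ± 0.04, a call lost in 5 of 13 alternatives, among them the averaging of its probe sets (-0.05) and the omission of shERCC6L replicate 2 or of shNC replicates 1, 2 or 3 (-0.11, -0.14, -0.15 and -0.16). SLC38A9, the lysosomal arginine sensor upstream of mTORC1, rose by 0.41 ± 0.04 (adjusted p = 6.4e-05), at 104.5 ± 4.12 in shERCC6L and 74.6 ± 2.72 in shNC (SD, n = 3 each). In the list linking ornithine and proline PYCR1, which makes proline in mitochondria, fell by 0.30 ± 0.04 (adjusted p = 0.00052), while PYCR3 and ALDH18A1 did not pass at 0.03 ± 0.05 and 0.05 ± 0.03. With probe sets averaged both passed as higher, PYCR3 at 0.19 and ALDH18A1 at 0.08 (adjusted p of 0.0036 and 0.038).

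**Figure D5:**
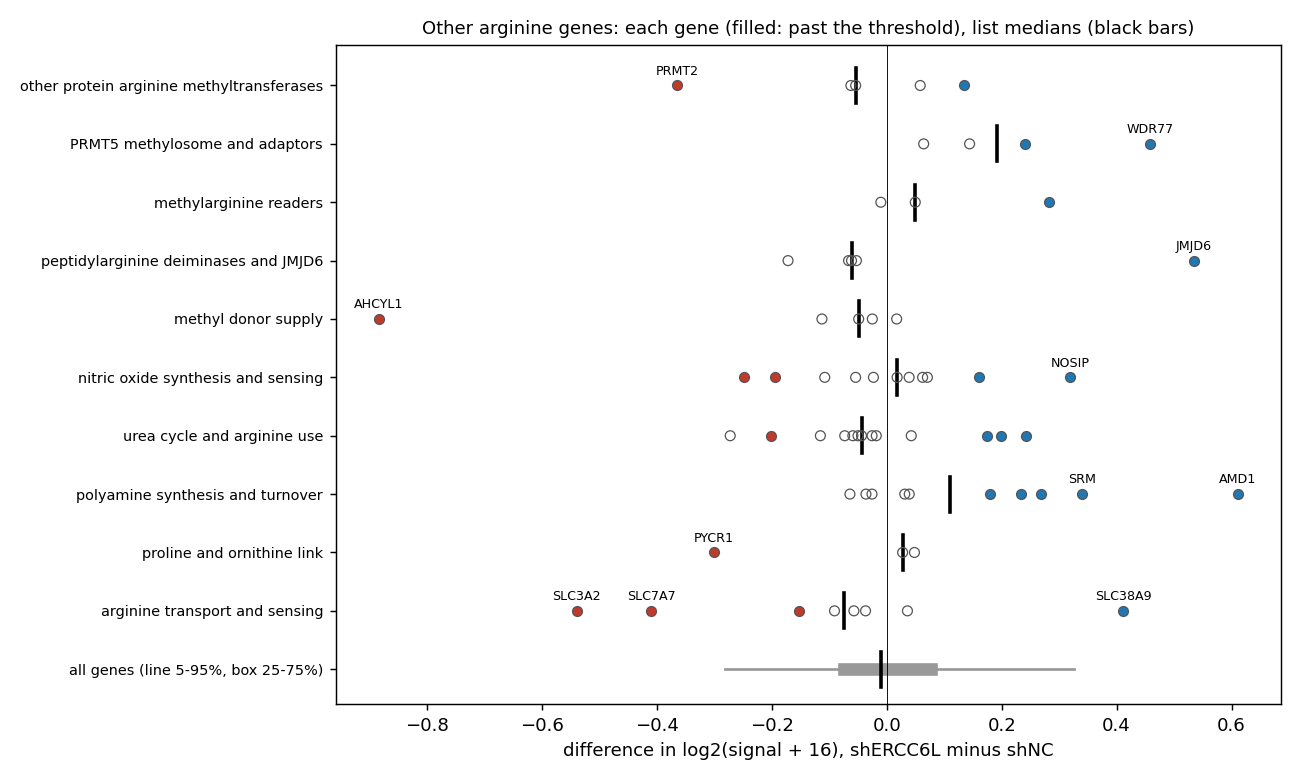
Difference in log2(signal + 16), shERCC6L minus shNC, for the 67 measured genes of 10 lists, with 1 point per gene, filled where past the threshold (blue higher, red lower), black bars for list medians and the spread of all genes in the lowest row. Polyamine genes past the threshold all lie right of 0, and AHCYL1 lies farthest left at -0.88.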

How the data were processed

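The authors deposited 1 table of probe set intensities on a linear scale for the 6 arrays. Affymetrix Expression Console is the program named by the submitters' processing notes. Its version and the steps it ran (background, scaling between arrays, joining of probes) were not given in the sources used here. Genes were named from GEO's platform annotation of the probe sets. All 10 members had a window in RefSeq's promoter table. The deposited intensities were turned into log2(signal + 16), and a gene with several probe sets was represented by the brightest of them, averaged over the 6 arrays. The groups were compared across all genes, and again across all single-gene probe sets, by linear models in limma 3.58.1 under R 4.3.3, with moderated 2-sided tests, no block, and a threshold of 0.05 after Benjamini-Hochberg adjustment. The procedure was checked on simulated data with independent noise and far fewer changed genes than were called here. That is a check of the code and not of the calls. Depth does not apply to arrays, whose number limits the precision.

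The members and lists were chosen with earlier results of these data known. Named genes are the members, listed genes past the threshold by at least 0.3 on the log2 scale, all genes of lists of 5 or fewer, and the 5 genes most like DDAH1, with ERCC6L as the target. Other genes of longer lists, and markers, were named after their values were seen. Deviations of same-numbered arrays from their group means correlated at 0.24 for replicate 1, -0.14 for replicate 2 and -0.01 for replicate 3. These had no common sign and no pairing is stated, so the arrays were not paired in the main fit. The alternatives tried were quantile normalization, centring of arrays on their medians, a replicate block, a pseudocount of 1, leaving out the dimmest 25% of genes, averaging probe sets, an intensity trend with robust estimation, and leaving out each array. The remaining 3 of the 70 listed genes are not reported here.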

Additional observations from a re-analysis of the deposited data

How the results depend on the processing

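DDAH1 was lower under all 13 alternatives, with log2 differences of -2.40 with a pseudocount of 1, -1.43 with its probe sets averaged, and -2.22 to -2.14 when any 1 array was left out. Over the 13, DDAH2 ran from -0.50 to -0.42, ASS1 from -0.39 to -0.34, PRMT6 from 0.14 to 0.21 and ASL from 0.13 to 0.22. PRMT1 reversed to -0.0097 with probe sets averaged, where its dimmer probe sets carry equal weight, and stood at 0.12 without shERCC6L replicate 2 and at 0.12 without shNC replicate 2. These values describe the members, which were chosen on the same arrays, and are no test of them. With a replicate block 3238 genes were higher and 2381 lower, against 3302 and 2431 without it. The block moved no count by over 1.5 times. PRMT1 changed its side of the threshold under it, and PADI1 passed as lower (-0.17, adjusted p = 0.028). Over the 13 alternatives PRMT1 was past the threshold in 7. PRMT3, not past it in the main fit, was past it in 2, median centring and probe sets averaged. The members past it as higher thus numbered from 2 to 4. Over all alternatives the listed genes beyond the members numbered 14 to 21 higher and 8 to 12 lower. With no detection calls, the dim probe sets of DDAH1, NOS3, PRMT1 and ASL have no known background, and 3 arrays per group limit the precision.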
